A study of Rattus norvegicus with 4 samples.

Results

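The 10 genes described here belong to the signalling systems that build and maintain blood vessels, or mark the cells that line them. They are the VEGF receptors Kdr and Flt1, the VEGF ligands Vegfa, Vegfb and Vegfc, the peptide ligand apelin (Apln), the angiopoietin ligand Angpt1 and its receptor Tek, and the endothelial adhesion molecules Cdh5 and Pecam1. They were found as the non-control probes whose gene name or RefSeq transcript was that of a member, which gave 16 of the 41012 probes and 10 of the 35731 genes or unnamed transcripts on the array. Kdr and Apln were chosen by their values in co-cultured against lone astrocytes, Kdr for a rise and Apln for a fall, so that their values in comparisons with lone astrocytes are a description and carry no test. The question was whether Kdr differed alone or together with other endothelial and angiogenic genes.

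RNA came from primary astrocytes of the cortex of Wistar rats (postnatal day 1) and from hippocampal neurons of mouse embryos (embryonic day 18) plated onto them. CC was RNA of whole neuron-astrocyte co-cultures, CC-CJ was RNA of the astrocyte layer of such co-cultures after a cold jet, a stream of ice-cold buffer that washes off the neurons, and AA-CJ was RNA of astrocytes kept alone and given the same cold jet. The labels name no transgene or drug for any RNA, and AA-CJ was kept in culture conditions similar to those of the co-cultures. On all 4 whole rat genome arrays, Cy3 marked CC-CJ, which was hybridised against Cy5-labelled AA-CJ on 2 of them and against Cy5-labelled CC on the other two. M is the log2 ratio of CC-CJ over the reference RNA of the same array. CC versus AA-CJ is the difference of both M values, and there the cold jet differs as well as the neurons. Dyes were not swapped. Whether same-numbered arrays of both comparisons carried the same CC-CJ RNA is not stated, so that the 4 readings of CC-CJ may stand for as few as 2 samples. Mouse mRNA was read by rat probes, so that rat and mouse transcripts of a gene cannot be told apart. In these bulk RNAs, a change in the number of cells of a type and a change in RNA per cell cannot be told apart either.

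VEGF ligands act on receptor tyrosine kinases of the vascular endothelium. Kdr (VEGFR2) is the main signalling receptor for Vegfa, whereas Flt1 (VEGFR1) binds Vegfa and Vegfb and often serves as a decoy. Vegfc acts mainly in lymphatic vessels, and Angpt1 stabilises vessels through Tek (Tie2). Apelin acts through a receptor of its own, Aplnr, and is made at vessel tips. Astrocytes are a known source of Vegfa in the brain, and Kdr has been described in neurons as well as in endothelium.

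The 250 bases before the annotated start of Kdr and Apln are shown because these genes had the largest differences among the members, in opposite directions. They are RefSeq sequences of the build GRCr8, at chr14:32571813-32572062 on the plus strand for Kdr and chrX:132091247-132091496 on the minus strand for Apln, written 5′ to 3′ along the gene, with matches of the GC box core GGGCGG on either strand in capitals.
Kdr: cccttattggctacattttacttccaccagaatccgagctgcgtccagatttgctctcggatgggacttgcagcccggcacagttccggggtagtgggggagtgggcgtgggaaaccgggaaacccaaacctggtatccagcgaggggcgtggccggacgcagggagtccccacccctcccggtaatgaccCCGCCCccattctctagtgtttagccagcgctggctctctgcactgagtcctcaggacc
Apln: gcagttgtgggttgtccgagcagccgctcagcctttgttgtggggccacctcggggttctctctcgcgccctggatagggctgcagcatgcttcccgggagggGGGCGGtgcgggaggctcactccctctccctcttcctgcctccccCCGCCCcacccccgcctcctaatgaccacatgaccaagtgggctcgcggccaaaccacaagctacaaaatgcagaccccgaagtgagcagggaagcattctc
The search covered GGGCGG, the ACGTG form of the hypoxia response element core and the TATA box TATAAA, on both strands. The other form of that core, GCGTG, was not part of the search, though it occurs in the Kdr window as printed. GGGCGG was found once before Kdr, 59 bases before the start, and at 2 places before Apln, 147 and 102 bases before it. Of 33469 rat promoters of this length, 30.5% hold GGGCGG, 16.6% hold ACGTG and 12.9% hold TATAAA. Neither ACGTG nor TATAAA was found in these windows of Kdr and Apln. GC content was 61.6% for Kdr and 64.8% for Apln, where the median of all promoters was 51.2%.

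Kdr was read by 1 probe, which has no position in the files, and its signal was well above background in all 8 readings (both channels of 4 arrays). On a log2 intensity scale after normalization within and between arrays, the level of Kdr was 6.43 and 6.53 in AA-CJ. In CC it was 9.34 and 9.33, and in CC-CJ it was 9.08, 9.32, 9.11 and 9.25. The AA-CJ readings thus lay far below the rest, without overlap, while the CC-CJ readings lay close to those in CC. How many of all genes lack overlap in this way was not counted, and Kdr was chosen by its difference from AA-CJ. M of Kdr was 2.65 and 2.58 on the arrays against AA-CJ, a mean of 2.62 with a standard error of 0.081 (n = 2 arrays), or 6.13-fold higher in CC-CJ. This was the difference with rank 4 among the 21366 genes tested. CC was higher than AA-CJ by 2.67 with a standard error of 0.114, or 6.36-fold. The size of these differences turned on how background was treated, since Kdr was dim in AA-CJ: M in CC-CJ versus AA-CJ was 3.17 with an offset of 16 in place of 50, 3.67 with plain background subtraction and 3.99 from Agilent's processed signals.

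When neurons were washed off, no difference in Kdr was detected. M was -0.02 and -0.09 on the arrays against CC, a mean of -0.05 with a standard error of 0.081 and a 95% interval of -0.24 to 0.14 (limma, adjusted p = 0.785). Both readings were close to 0. When arrays were only centred on their median, in place of a loess curve on intensity, M of Kdr against CC fell to -0.45 (limma, adjusted p = 0.00465), and 14589 of the 21366 genes were called as well.

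The share of the co-culture level of Kdr that remained after cold jet was computed on the linear scale, with the AA-CJ level subtracted from CC-CJ and from CC. It was 98.6% and 93.1% for the replicate numbers 1 and 2, a mean of 95.9% ± 3.92 (SD, n = 2). These levels are after loess, with CC-CJ in Cy3 and CC in Cy5. The share was not computed with median centring, where M of Kdr against CC was -0.45. The same share was taken for the 6 neuron markers that CC showed clearly, at 2 or more times the AA-CJ level, and they retained a mean of 9.53% ± 0.478 (SD, n = 2). They ranged from 4.91% for Dcx, a microtubule protein of young neurons, to 13.9% for Tubb3, a neuronal tubulin. Without subtraction of AA-CJ, the share was 96.5% ± 3.35 for Kdr and 18.8% ± 1.16 for the neuron markers (SD, n = 2), with a range of 7.67% for Dcx to 36.6% for Tubb3. Kdr and these 6 neuron markers were all higher in CC than in AA-CJ, and their shares after cold jet did not overlap. This is a description, since Kdr was chosen by CC-CJ against AA-CJ and the markers by CC against AA-CJ. The other tested neuron genes did not reach 2 times the AA-CJ level in CC. Their M against CC was 0.24 for Eno2, -0.00093 for Stmn2, -0.31 for Map2, -0.88 for Nefl and -0.23 for Syt1. These genes were named after their values were seen.

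**Figure D1:**
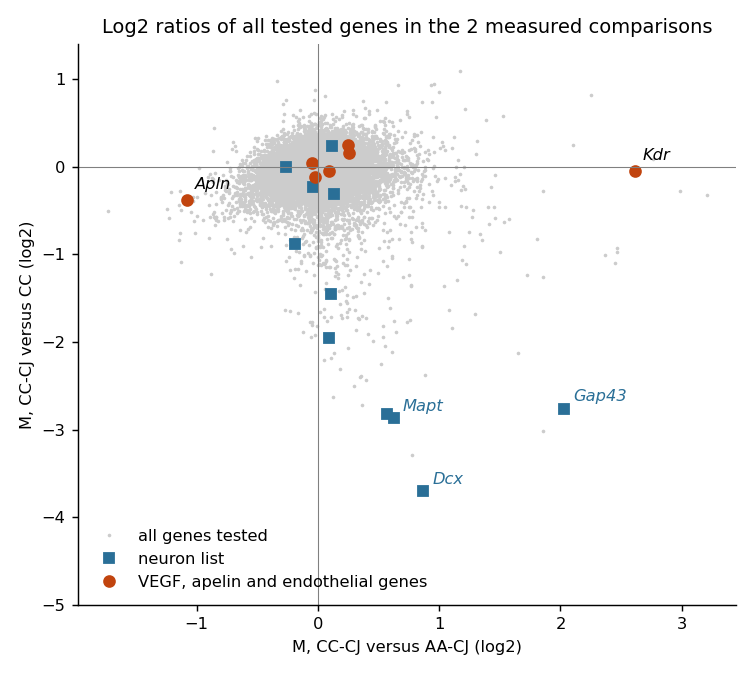
Each point is a gene, with M (log2) of CC-CJ versus AA-CJ on the horizontal axis and of CC-CJ versus CC on the vertical axis, each a mean of 2 arrays; grey points are all 21366 genes tested, blue squares the neuron list and red circles the 7 members that were tested. Kdr lies at 2.62 and -0.05, whereas Gap43, a neuronal growth protein, lies at 2.03 and -2.76.

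Apln, the other member chosen by its difference, went in the opposite direction. It was read by 2 probes on chromosome X of rn4, at 134387384 to 134387443 and at 134389049 to 134389108, and both were well above background in all 8 readings. The log2 level of Apln (mean of both probes) was 10.96 and 11.46 in AA-CJ and 10.51 and 10.39 in CC. In CC-CJ it was 10.16, 10.11, 10.10 and 10.03. The 3 RNAs did not overlap, with AA-CJ highest and CC-CJ lowest, although the AA-CJ readings lay further apart than those of the other RNAs. As CC-CJ is the only RNA in Cy3, dye and RNA cannot be told apart for its low readings. How many of all genes separate in this way was not counted, and Apln was chosen by its difference from AA-CJ. M of Apln was -0.79 and -1.36 against AA-CJ, a mean of -1.08 with a standard error of 0.135, which is 2.11-fold lower in CC-CJ. The first probe gave -0.51 and -1.18, and the second gave -1.08 and -1.55, so that the probes had the same order of arrays but differed in size. In CC versus AA-CJ, M of Apln was -0.70 with a standard error of 0.192.

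Against CC, M of Apln was -0.40 and -0.36, lower in CC-CJ on both arrays, with a mean of -0.38 and a standard error of 0.135. This did not pass the test (limma, adjusted p = 0.236, unadjusted p = 0.0271, 95% interval -0.70 to -0.06). With median centring, M was -0.87 (limma, adjusted p = 0.00104). Both readings of Apln in AA-CJ thus lay above all readings of the co-culture RNAs, whereas its difference between CC-CJ and CC did not pass after loess. With median centring, M of Apln against AA-CJ was -1.76.

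**Figure D2:**
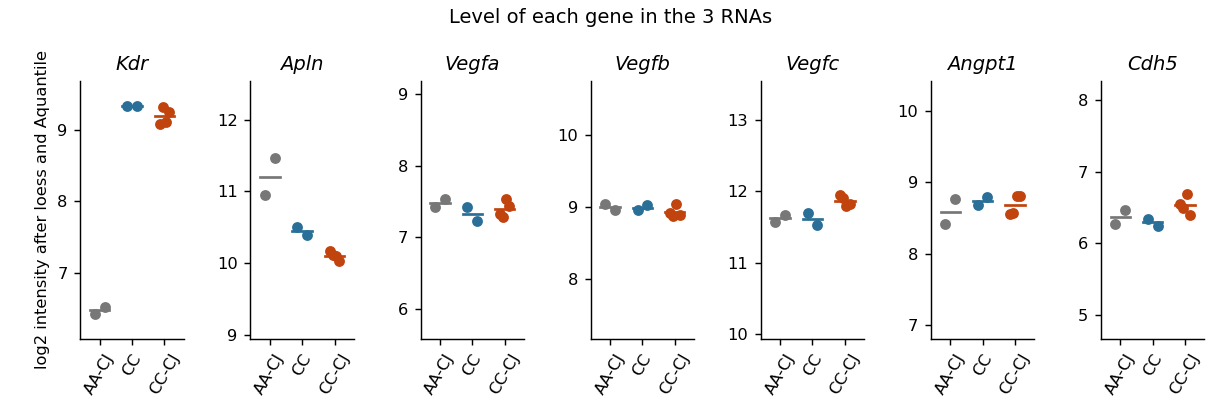
The log2 intensity after loess and Aquantile normalization is plotted for 7 genes in AA-CJ (2 readings), CC (2 readings) and CC-CJ (4 readings); points are readings, lines are means, and every panel spans the same range on its vertical axis. Kdr stands apart in AA-CJ at 6.43 and 6.53 and Apln is highest there at 10.96 and 11.46, while readings of the other 5 genes lie close together.

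The VEGF ligands were well above background in all 8 readings, and none of them passed the test in any comparison. Vegfa, the main ligand of Kdr, was read by 2 probes on chromosome 9 (10528580 to 10528965 and 10521744 to 10521803). Its level was 7.43 and 7.54 in AA-CJ, 7.43 and 7.23 in CC, and 7.29 to 7.54 in CC-CJ. The RNAs overlapped, and M of CC-CJ versus AA-CJ was -0.05 with a standard error of 0.106 (limma, adjusted p = 0.841, 95% interval -0.30 to 0.21). Against CC, M of Vegfa was -0.14 and 0.22, so that both arrays differed in sign. Vegfb, a ligand of Flt1, had M values of -0.14 and 0.09 against AA-CJ, which also differ in sign, and of -0.08 and -0.14 against CC. The mean of Vegfb was -0.02 against AA-CJ (standard error 0.090, limma, adjusted p = 0.916).

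After loess, M of Vegfc was slightly above 0 on all 4 arrays, a direction that turned with median centring (M of -0.56 against AA-CJ, limma, adjusted p = 0.00242, and of -0.34 against CC, limma, adjusted p = 0.0199). Its level was 11.57 and 11.67 in AA-CJ, 11.70 and 11.53 in CC, and 11.79 to 11.95 in CC-CJ, so that CC-CJ did not overlap with either reference. How many of all genes show the same was not counted. CC-CJ is in Cy3 and both references are in Cy5, so that dye and RNA cannot be told apart here, and M of CC versus AA-CJ, with both in Cy5, was -0.0011. Against AA-CJ, M of Vegfc was 0.25 with a standard error of 0.094 (limma, adjusted p = 0.185), and against CC it was 0.25 with the same standard error (limma, adjusted p = 0.256).

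Of the receptors other than Kdr, neither Flt1 nor Tek gave a signal. The 2 probes of Flt1, the 2 probes of Tek and the probe of Pecam1 (an adhesion molecule of endothelial cells) were not well above background in any of the 8 readings. Their background-subtracted intensities ran from -1 to 14.9 in Cy3 and from -6.66 to 24.9 in Cy5. No ratio is therefore given for these 3 genes. Angpt1, the ligand of Tek, was well above background in all 8 readings. Its M values were 0.14 and 0.04 against AA-CJ and -0.11 and 0.02 against CC. The mean against AA-CJ was 0.09 with a standard error of 0.084 (limma, adjusted p = 0.582).

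Cdh5 (VE-cadherin), the junction protein that defines endothelial cells, was close to background. Of its 2 probes, that on chromosome 19 from 788852 to 790286 was well above background in both CC readings, 3 of 4 CC-CJ readings and 1 of 2 AA-CJ readings, and the other probe in none. The level of Cdh5 was 6.27 and 6.46 in AA-CJ, 6.34 and 6.24 in CC, and 6.40 to 6.69 in CC-CJ, so that CC-CJ and AA-CJ overlapped. Within arrays, M was 0.28 and 0.23 against AA-CJ and 0.14 and 0.16 against CC. The mean of 0.25 against AA-CJ (standard error 0.079) did not pass the test (limma, adjusted p = 0.126), and the 95% interval ran from 0.06 to 0.44. CC versus AA-CJ, in 1 dye, gave 0.10 with a standard error of 0.112 (limma, adjusted p = 0.678). As for Kdr, the size of M turned on how background was treated. Against AA-CJ, M of Cdh5 was 0.44 with an offset of 16 (limma, adjusted p = 0.0939), 0.77 with plain background subtraction (limma, adjusted p = 0.113) and 0.75 from Agilent's processed signals (limma, adjusted p = 0.141). With median centring it was 0.83 and passed (limma, adjusted p = 0.000797). In CC versus AA-CJ, M was 0.17, 0.33 and 0.58 with the first 3 of these settings and -0.18 with median centring, and none passed. Against CC, M of Cdh5 with median centring was 1.01 and passed too (limma, adjusted p = 0.000594).

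**Figure D3:**
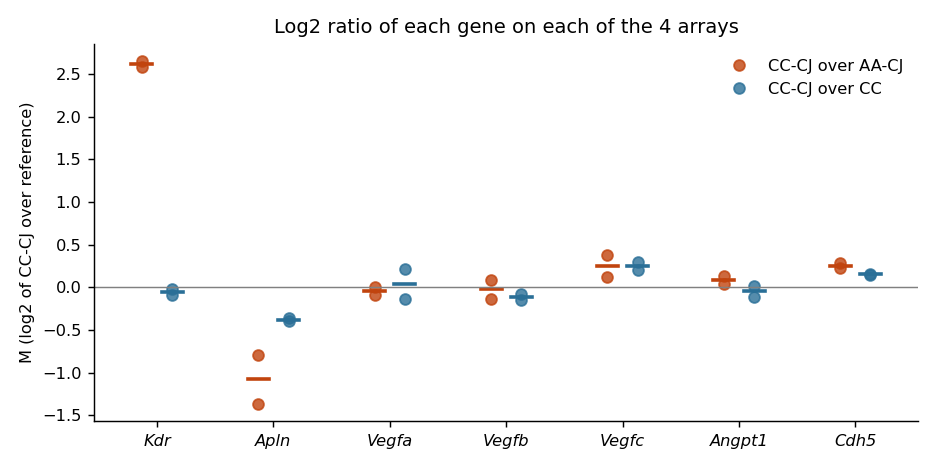
M (log2 of CC-CJ over the reference) is plotted for 7 genes on each array, with arrays against AA-CJ in red and against CC in blue; points are arrays and lines are means of 2. Kdr at 2.65 and 2.58 and Apln at -0.79 and -1.36 against AA-CJ lie apart from the other 5 genes, all of whose values lie between -0.14 and 0.37.

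Of the 10 members, 7 had a probe that passed the filter on dim probes, and Flt1, Pecam1 and Tek did not. In CC-CJ versus AA-CJ, 0 of the 5 members other than Kdr and Apln passed an adjusted p of 0.05 (limma), and 2 of them, Vegfc and Cdh5, had an unadjusted p under 0.05. Among all 21366 genes, 1.94% were called higher and 1.16% lower in this comparison, and 22.6% had an unadjusted p under 0.05. The median M of these 5 members was 0.09, beside -0.02 over all genes. In CC-CJ versus CC, 0 of 7 members were called (limma), with 2 at an unadjusted p under 0.05 (Vegfc and Apln, beside 17% of all genes), where 0.0983% of all genes were called higher and 2.27% lower. In CC versus AA-CJ, 0 of 5 members were called (limma) and 0 had an unadjusted p under 0.05 (beside 17.8% of all genes), where 2.58% of all genes were called higher and 0.0796% lower. These shares are so small that 0 calls among 5 or 7 genes is near the background. The comparisons share arrays and are therefore not independent of each other.

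With median centring in place of loess, 4 of the 5 members were called in CC-CJ versus AA-CJ and 6 of the 7 in CC-CJ versus CC, with 14282 and 14589 genes called in all. In the first of these, Cdh5 was higher, with an M of 0.83, and Angpt1, Vegfb and Vegfc were lower, with M values of -0.27, -0.45 and -0.56. This setting leaves the dependence of M on intensity within an array in place. In CC versus AA-CJ, where both RNAs are in Cy5, no member was called with it either (limma, smallest adjusted p over the alternatives 0.318).

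The 11 other genes of the VEGF, apelin and angiopoietin systems were read next. Of 10 with a probe, 6 were tested, and 0 passed in any of the 3 comparisons (limma, with 1, 2 and 0 at an unadjusted p under 0.05 in CC-CJ versus AA-CJ, CC-CJ versus CC and CC versus AA-CJ). Of all genes, 22.6%, 17% and 17.8% had an unadjusted p under 0.05 (limma) in these comparisons. At most 2.58% were called in 1 direction, so that 0 of 6 is near the background. The genes named from this list were chosen after their values were seen. Aplnr, the apelin receptor, had an M of -0.12 in CC-CJ versus AA-CJ (limma, adjusted p = 0.532). Nrp1, a co-receptor of Kdr, had an M of -0.39 (limma, adjusted p = 0.281) and Angpt2, which antagonises Angpt1 at Tek, had an M of 0.31 (limma, adjusted p = 0.132). Flt4, a receptor of Vegfc, and Tie1 were not well above background in any reading. The median M of the 6 genes was -0.07, beside -0.02 over all genes.

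Genes around these systems were counted in the same way in CC-CJ versus AA-CJ. There, 1.94% of all genes were called higher and 1.16% lower, and 22.6% had an unadjusted p under 0.05 (limma). Counts of 0 in lists of 10 to 14 genes are near these shares. Of 14 tested angiogenic ligands, receptors and inhibitors, 0 passed (limma, 3 at an unadjusted p under 0.05), with a median M of -0.01 and a range of -0.22 to 0.23. Of 13 tested genes that respond to hypoxia, a condition that is known to induce Vegfa and Apln, 0 passed (limma, 3 at an unadjusted p under 0.05), with a median M of -0.13. Of 10 tested genes that transmit the signal of Kdr, 0 passed (limma, 2 at an unadjusted p under 0.05), with a median M of 0.03 and a range of -0.29 to 0.25. In CC-CJ versus CC and CC versus AA-CJ, 0 genes of these lists passed either, with 3, 4 and 2 and then 1, 2 and 2 at an unadjusted p under 0.05 (limma), beside 17% and 17.8% of all genes. At most 2.58% of all genes were called in 1 direction there, so that these counts are near the background as well.

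Endothelial genes other than the members were mostly dim. Of the 22 endothelial genes on the list, members included, 12 were not well above background in any reading, and Cldn5, the tight junction protein of brain endothelium, was among them with Pecam1. Of the 17 genes that are not members, 6 were tested and 0 passed in any comparison (limma, 2, 0 and 0 at an unadjusted p under 0.05). Their M in CC-CJ versus AA-CJ lay between -0.29 for Egfl7, a secreted vessel protein, and 0.27 for Slco1a4, an organic anion transporter of brain endothelium, both named after their values were seen. The median was 0.02. The summed level of the 8 tested genes with Kdr and Cdh5 was 1186 to 1195 in AA-CJ, 1559 to 1673 in CC-CJ and 1659 to 1714 in CC. Without Kdr, which was chosen by its value, the sum of the other 7 genes was 1100 to 1103 in AA-CJ. It was 952 to 1057 in CC-CJ, the only RNA in Cy3, and 1014 to 1067 in CC. As Kdr was chosen for its rise, the loss of the rise without it is a description and no test. Gene by gene, these 7 went both ways, with M in CC-CJ versus AA-CJ between -0.29 and 0.27. Of 6 tested genes of mural cells, which surround vessels, 0 passed in any comparison (limma, 2, 1 and 1 at an unadjusted p under 0.05). At most 2.58% of all genes were called in 1 direction of a comparison, so that 0 of 6 is near the background for both lists. An unadjusted p under 0.05 (limma) was found for 22.6%, 17% and 17.8% of all genes.

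**Figure D4:**
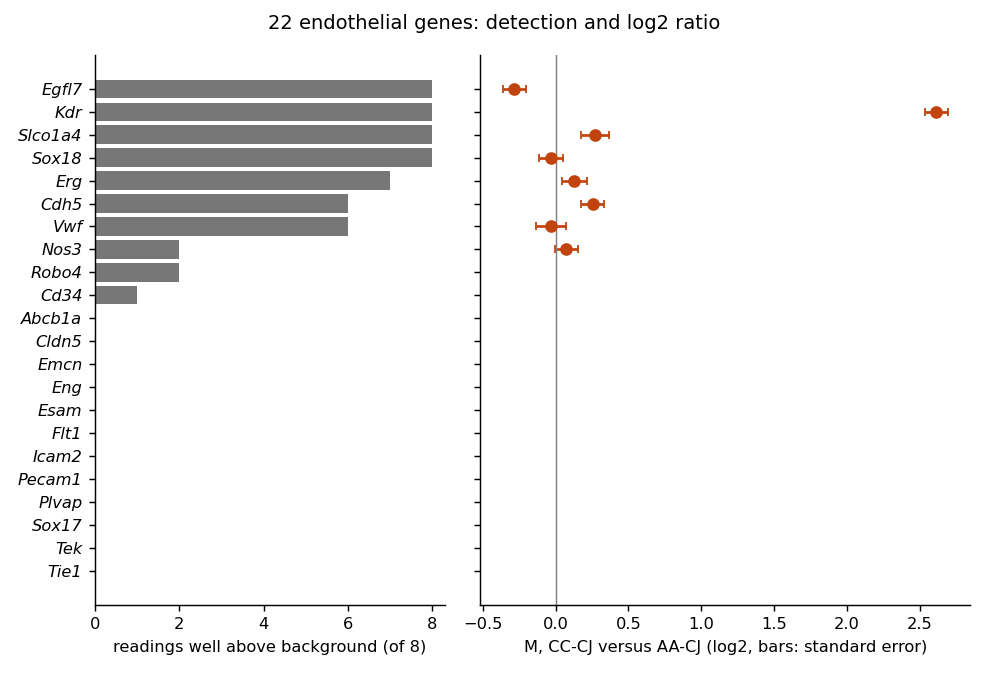
For 22 endothelial genes, bars on the left give the number of readings (of 8, both channels of 4 arrays) in which the gene was well above background, and points on the right give M (log2) of CC-CJ versus AA-CJ with its standard error for the 8 genes tested. Kdr lies at 2.62, the other 7 genes lie between -0.29 and 0.27, and 12 genes were above background in no reading.

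Markers of other cells moved between the RNAs. Of all genes, 1.94% were called higher and 1.16% lower in CC-CJ versus AA-CJ (limma, adjusted p under 0.05). The shares were 0.0983% and 2.27% in CC-CJ versus CC, and 2.58% and 0.0796% in CC versus AA-CJ. Of 11 tested neuron genes, CC-CJ was higher than AA-CJ for 4 and lower than CC for 7, and CC exceeded AA-CJ for 6 (limma, adjusted p under 0.05). Their summed level was 13447 to 13819 in AA-CJ, 13113 to 13847 in CC-CJ and 23309 to 23496 in CC, and the defining marker Snap25 was well above background in CC alone. Mapt, which codes for tau, had an M of 0.63 in CC-CJ versus AA-CJ (limma, adjusted p = 0.0368) and of -2.87 in CC-CJ versus CC (limma, adjusted p = 0.000106). Of 4 tested microglia genes, Tyrobp rose in CC-CJ compared with AA-CJ (M of 0.77, limma, adjusted p = 0.00958) and stayed below its level in CC (M of -0.74, limma, adjusted p = 0.00543). Aif1, well above background in CC alone, was lower in CC-CJ than in CC (M of -0.53, limma, adjusted p = 0.0439). In CC versus AA-CJ its M was 0.78 (limma, adjusted p = 0.0381). The summed level of these 4 genes was 413 to 503 in AA-CJ, 520 to 583 in CC-CJ and 783 to 818 in CC. Of 9 astrocyte genes, Aqp4, a water channel, had an M of 0.51 against AA-CJ (limma, adjusted p = 0.0311), while the M values of Gfap (-0.26) and Slc1a3 (0.32) did not pass. Of 7 tested genes of the oligodendrocyte lineage, Sox10 had an M of -1.12 against CC (limma, adjusted p = 0.0334). The part of these cells in the values of Kdr and Apln was not tested.

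The genes whose 4 M values were nearest to those of Kdr, by Euclidean distance over the 4 arrays and 8421 genes with a symbol, were Tppp3 (distance 0.364), Ccnd2 (0.617), Tm4sf1 (0.862), Grk1 (1.34) and Ly6h (1.51). Tppp3, a tubulin-binding protein, had M values of 2.68 and 2.84 against AA-CJ and of -0.0031 and 0.17 against CC. Ccnd2, which codes for cyclin D2, had M values of 3.01 and 2.97 against AA-CJ and of -0.20 and -0.34 against CC. Tm4sf1, a membrane protein known from endothelial cells among others and not on the endothelial list, had M values of 2.25 and 1.96 against AA-CJ and of 0.22 and 0.28 against CC. Like Kdr, these 3 genes were high against AA-CJ and much nearer to 0 against CC, whereas Grk1 and Ly6h were lower than CC by at least 0.87 on both arrays. Nearest to Apln were Rpl41 (0.570), Tm7sf2 (0.579), Cst3 (0.617), Slc7a5 (0.630) and Cyp26b1 (0.633). Cyp26b1, which degrades retinoic acid, had M values of -1.14 and -0.93 against AA-CJ and of -0.16 and -0.54 against CC. These distances are a description of 4 arrays.

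In the whole series, 50.1% to 62.6% of probes were well above background per channel. All arrays shared 1 slide and 1 scan, and at most 4 spots per channel were saturated. The number of arrays limits the precision of every value.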

How the data were processed

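The authors deposited spot intensities of each array from Agilent Feature Extraction 9.5.1.1, as mean signal and local background per channel, with probe positions on rn4. The authors' own normalized values are log2 ratios of Cy5 over Cy3, as a comparison with the scanner values shows. With their sign turned, their correlation with M across probes was 0.923 to 0.969. The methods name OLIN and OSLIN, which are local regressions on intensity and array location, for their normalization, and the median per array, turned to Cy3 over Cy5, was -0.0099, 0.025, -0.0061 and 0.015. They served, with the sign turned, as an alternative.

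Here, intensities were corrected by normexp (offset 50) and M was normalized by loess (span 0.3) in limma 3.58.1 under R 4.3.3. Control spots and 121 to 179 outlier spots per array were left out, and spots of a probe were averaged. Of 41012 probes, 24865 were kept because Agilent's flag put them well above background in all readings of 1 RNA or more. A gene was the mean of its kept probes, and 16036 probes had a symbol. Levels come from Aquantile normalization between arrays. lmFit and eBayes were run on 4 arrays (2 residual and 4.71 prior degrees of freedom) with Benjamini-Hochberg adjustment over 21366 genes. The replicates of a comparison came, per the methods, from different pools of animals. Standard errors in the text are those of eBayes.

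On simulated data with 200 genes changed by a log2 of 1, 94% were recovered in CC-CJ versus AA-CJ (5.53% of calls false) and 92.5% in CC-CJ versus CC (4.64% false). With 400 changed in CC versus AA-CJ, 80.5% were recovered (4.17% false). The simulated arrays were independent and had no effect of dye or intensity. Smaller changes, such as those of the members other than Kdr and Apln, were not simulated, so that these rates do not cover them.

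Members and lists were chosen with earlier results of these data known. Named genes are the 10 members, list genes that passed in a comparison on both arrays, defining markers, the 5 genes nearest to Kdr and to Apln, and those said to be chosen after their values were seen. Alternatives covered background, normalization, source of values, filter, fit, prior, single probes, the criteria of the methods (2 SD) and each array left out. Probe sequences, rn4 transcript models and a mouse reference were not used here.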

Additional observations from a re-analysis of the deposited data

How the results depend on the processing

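The counts of members called, 0 in each comparison, were unchanged under every alternative run except median centring, which gave 4 in CC-CJ versus AA-CJ and 6 in CC-CJ versus CC. Without subtraction of AA-CJ, the share after cold jet was 96.5% for Kdr and, added after seeing the data, 18.8% for the neuron markers. The share was not computed under the other alternatives. M of Kdr stayed positive in CC-CJ versus AA-CJ (2.49 to 3.99) and in CC versus AA-CJ (2.63 to 3.94), and M of Apln stayed negative (-1.76 to -0.79, and -0.98 to -0.41). Values near 0 changed sign, and so did M of Vegfc, which was 0.25 in CC-CJ versus AA-CJ and in CC-CJ versus CC. With median centring, the turned values of Vegfc passed in both comparisons (limma, adjusted p = 0.00242 and 0.0199). That of Angpt1 in CC-CJ versus AA-CJ passed too (limma, adjusted p = 0.0414). Against CC, Kdr was 0.0093 with loess on intensity and location, 0.057 from Agilent's signals and 0.036 from the authors' values, and Angpt1 was 0.00071 with background subtraction, 0.024 from Agilent's signals and 0.00019 from the authors' values. With median centring, CC-CJ versus AA-CJ gave -0.27 for Angpt1 and -0.56 for Vegfc, CC-CJ versus CC gave -0.34 for Vegfc, and CC versus AA-CJ gave -0.18 for Cdh5 and -0.0063 for Vegfb, which was -0.0088 from the authors' values. Single probes gave 0.028 for Vegfa and 0.063 for Vegfb in CC-CJ versus AA-CJ and 0.0032 for Vegfa in CC versus AA-CJ. With 1 array left out, where the lone array is assumed to vary like the others, Vegfb ranged from -0.14 to 0.090 in CC-CJ versus AA-CJ and from -0.022 to 0.20 in CC versus AA-CJ, Vegfa from -0.14 to 0.22 in CC-CJ versus CC and from -0.26 to 0.10 in CC versus AA-CJ, Angpt1 from -0.11 to 0.019 in CC-CJ versus CC, and Vegfc from -0.13 to 0.13 in CC versus AA-CJ. None of these leave-one-out values passed. The cause of these changes was not tested.

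Over all genes, calls ranged from 72 (background subtraction) to 14282 (median centring) beside 662 in CC-CJ versus AA-CJ, from 191 (without CC array 2) to 14589 (median centring) beside 505 in CC-CJ versus CC, and from 236 (background subtraction) to 1015 (median centring) beside 568 in CC versus AA-CJ. The part of calls that were higher was 62.7% in CC-CJ versus AA-CJ, but 77.1% with an offset of 16, 94.4% with background subtraction, 51% with median centring and 89.6% from Agilent's signals. It was 4.16% in CC-CJ versus CC, but 54.7% with median centring and 21.8% from the authors' values, and 97% in CC versus AA-CJ, but 63.1% with median centring, which also moved the median M of all genes there to -0.15.

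Same-numbered arrays were not shown to be paired, since the correlation of their deviations from the group means was -0.112 across 21361 genes. With the replicate block, 0 members were called in each comparison and 170, 316 and 298 genes in all. A crossed block, added after seeing the data, gave 0 members and 1503, 854 and 836 genes. Slide and scan could not serve as blocks, as there was 1 of each.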
